A study of Mus musculus with 8 samples.

Results

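The bone morphogenetic protein (BMP) genes described here are 9 of the 54532 gene identifiers counted in cultured mouse brain pericytes. They are the ligand genes Bmp2, Bmp4, Bmp6 and Bmp7, the receptor genes Bmpr1a, Bmpr1b and Bmpr2, and the genes of the secreted antagonists gremlin 1 (Grem1) and noggin (Nog). All 9 were found by their mouse symbol and were chosen by name. The study used primary pericytes from the brains of WT mice and asked what TGF-β1, a cytokine related to the BMPs, does to them when it is given from outside. 4 cultures received vehicle (cultures 1 to 4) and 4 received TGF-β1 at 5 μg/mL (cultures 5 to 8), all for 48 h, and total RNA of each was sequenced. Male mice of 4 and 6 months were used in the work as a whole, but the strain of the pericyte donors, and which and how many animals gave each culture, are not given in the sources used here. The study's methods speak of independent isolates that received vehicle and TGF-β1, which may mean that each isolate was split between the arms, whereas the series describes separate cultures and its labels tie no vehicle culture to a TGF-β1 culture. The arms were therefore compared as unpaired. All 8 cultures were grown on collagen in endothelial growth medium and then pericyte medium, without the vessel or neighbouring brain cells. The p-values below set the difference between the arms against the spread of the cultures within each arm, and they treat the 8 cultures as independent. In edgeR's test, that spread is estimated with information shared across genes. Between pairs of cultures of the same arm, the chi-square of the counts was 2.25 to 3.93 per degree of freedom. Whether this spread holds the differences between animals was not tested, so the p-values speak for these cultures only.

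BMP ligands are secreted dimers that bind a pair of type I and a pair of type II serine/threonine kinase receptors. BMPR1A and BMPR1B are type I receptors, and BMPR2 is a type II receptor that phosphorylates them. The active type I receptor then phosphorylates SMAD1, SMAD5 and SMAD9, which enter the nucleus with SMAD4 and raise target genes such as the Id genes. Gremlin 1 and noggin bind BMP ligands outside the cell and keep them from the receptors. TGF-β1 acts through its own receptors of the same superfamily and mainly through SMAD2 and SMAD3. In vessels, BMPR2 is known for its mutations in pulmonary arterial hypertension, and ALK1, encoded by Acvrl1, for those in hereditary haemorrhagic telangiectasia.

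Each library held between 45255235 and 47651397 counts assigned to genes, so that 3 counts corresponded to 0.0631 to 0.0658 CPM, the count scaled to a common library size. Of the 10 pericyte markers, 8 passed the filter on low counts. At an adjusted p below 0.05 in edgeR's test, 4 were higher with TGF-β1 and 2, Rgs5 and Anpep, were lower. Of all genes tested, 20.9% were higher and 20.3% lower. The list summed to 578 to 597 CPM with vehicle and 756 to 784 CPM with TGF-β1. Rgs5 fell from 8.62 to 2.13 CPM and Anpep from 40.5 to 30.1 CPM. Des, at 0.685 CPM with vehicle and 0.623 CPM with TGF-β1, was not called (adjusted p = 0.715). Pdgfrb was at 202 CPM with vehicle and 291 CPM with TGF-β1, and Cspg4 at 82.9 and 169 CPM, whereas Kcnj8 stayed at or below 0.0436 CPM and Abcc9 at or below 0.189 CPM in every culture. Of the 8 endothelial markers, Cldn5, Erg, Emcn and Tie1 were too low to be tested and Pecam1 was at 1.11 CPM in both groups, but Cdh5 was at 375 and 367 CPM. The fibroblast list summed to 1652 to 1734 CPM with vehicle and 2567 to 2694 CPM with TGF-β1, mostly Col1a1, while Pdgfra was at 62.5 and 63.0 CPM. The 6 leptomeningeal markers summed to 181 to 193 CPM with vehicle and 177 to 190.2 CPM with TGF-β1, with Crabp2 higher, with Foxc2, Ptgds and Igfbp2 lower, and with Slc6a13 and Aldh1a2 too low to be tested. The part of these cell types in the BMP values was not tested. In these bulk samples, a change in the number of cells that make a transcript and a change in the RNA per cell cannot be told apart.

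Of the 9 BMP genes, 8 passed the filter, 5 were higher with TGF-β1 and 2 were lower at an adjusted p below 0.05 in edgeR's quasi-likelihood test. Across all 22544 genes tested, 41.3% were called, 20.9% as higher and 20.3% as lower, so that a call by itself was common in these data. The 9 genes were chosen with earlier results of these data known, so that their count of calls is not a test of the group. Bmp4, Bmp6, Bmpr1b, Bmpr2 and Grem1 were higher, Bmp2 and Bmp7 were lower, Bmpr1a was not called, and Nog was too low to be tested. The vehicle and TGF-β1 values of the 7 called genes did not overlap, with 5 higher and 2 lower, which was the case for 37.9% of all genes tested (19.1% higher and 18.8% lower). The median log2 fold change of the 8 tested genes was 0.26, against -0.01 for all genes, and Bmp2 and Bmp7 were the members with an absolute log2 fold change of at least 1, a size reached with a call by 5.41% of all genes.

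**Figure D1:**
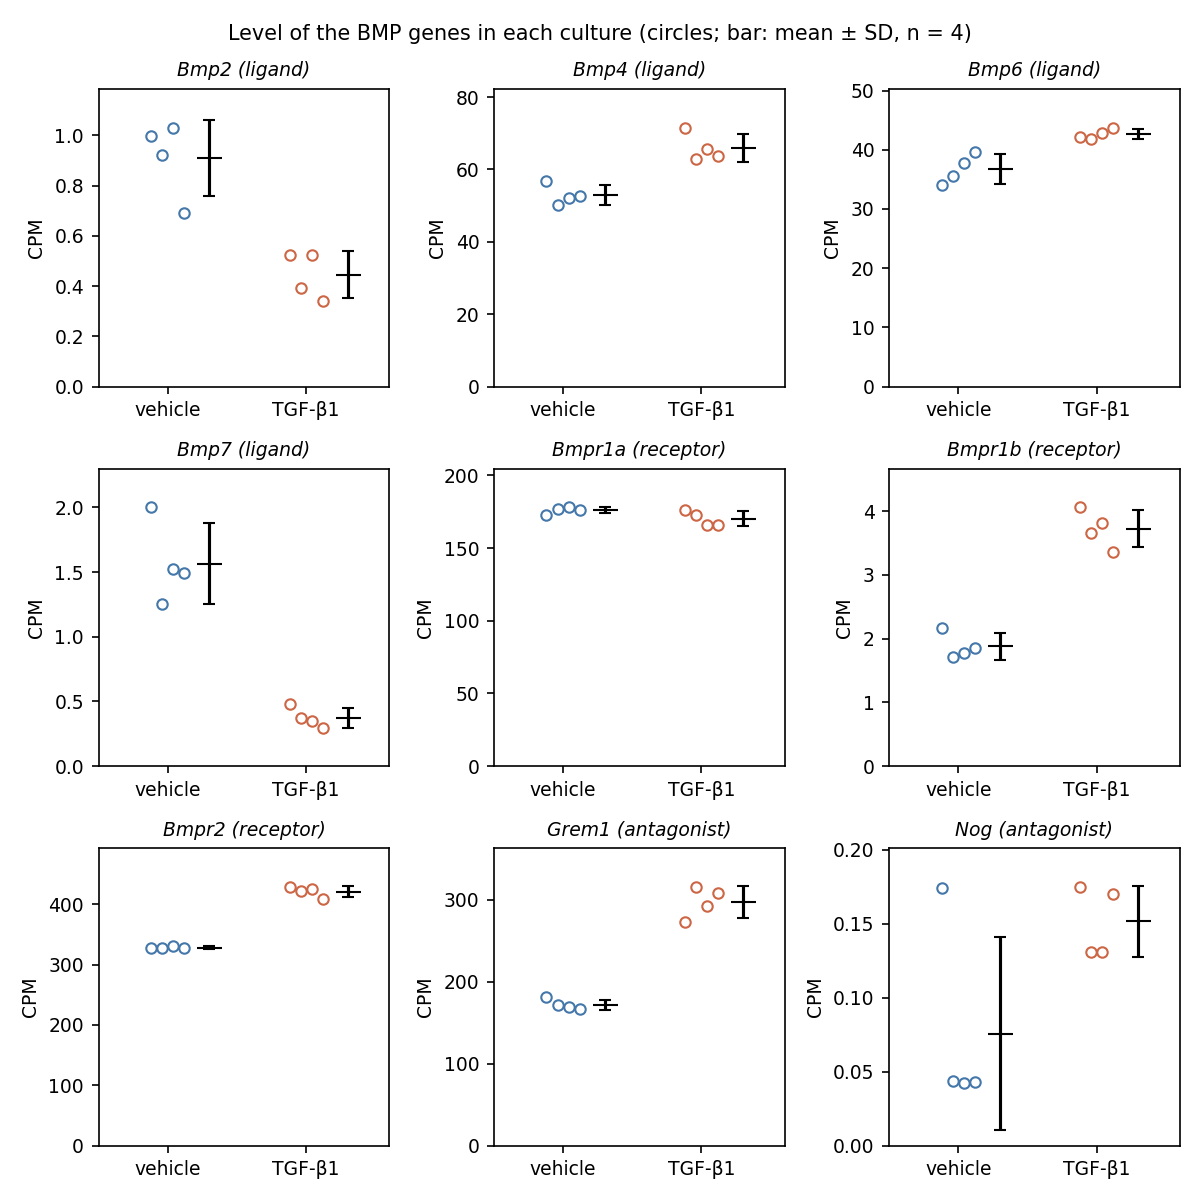
Expression of the 9 BMP genes in each of the 8 cultures, in CPM on a separate linear axis per gene, with one point per culture and a bar at each group mean ± SD. The vehicle and TGF-β1 points are apart for all genes except Bmpr1a, at 173 to 178 against 166 to 176 CPM, and Nog, at 0.0421 to 0.174 against 0.131 to 0.175 CPM.

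Of the ligands, the more abundant pair rose and the scarce pair fell. Bmp4 (ENSMUSG00000021835, chr14:46383520-46390669, minus strand, GRCm38) encodes a ligand of early mesoderm, bone and vessel development. Its level was 56.8, 50.3, 52.2 and 52.7 CPM in the vehicle cultures and 71.5, 62.9, 65.7 and 63.8 CPM in the TGF-β1 cultures. Every TGF-β1 culture was above every vehicle culture. The means were 53.0 ± 2.73 CPM and 66.0 ± 3.86 CPM (SD, n = 4 each), a log2 fold change of 0.31 (SE 0.038, adjusted p = 1.2e-08), or 1.24-fold.

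The 250 bases before the RefSeq start of Bmp4 (GRCm38.p6, chr14:46390670-46390919, minus strand) are shown because they hold none of the short motifs sought on both strands. These were CAGAC, the core of the SMAD box, GGCGCC, a GC-rich element of BMP-responsive SMADs, and TGANTCA, the AP-1 element. GTCTAGAC and TATAAA were sought as well, and none of the motifs contains another. CAGAC was present in 42.2%, GGCGCC in 9.59% and TGANTCA in 6.75% of all 32851 RefSeq windows of this length. TATAAA was present in 12.4% and GTCTAGAC in 0.167% of them. The Bmp4 window had a GC content of 63.2% and 11 CpG dinucleotides.
Bmp4 promoter: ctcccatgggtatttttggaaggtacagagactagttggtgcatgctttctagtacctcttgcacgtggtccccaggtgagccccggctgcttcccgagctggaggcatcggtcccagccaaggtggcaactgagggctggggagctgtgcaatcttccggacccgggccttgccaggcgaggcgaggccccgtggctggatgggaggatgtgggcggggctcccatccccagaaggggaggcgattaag

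Bmp6 (ENSMUSG00000039004, chr13:38345107-38500302, plus strand) encodes a ligand that endothelial cells of the liver use to set hepcidin and so iron uptake. It was at 34.0, 35.6, 37.7 and 39.7 CPM in the vehicle cultures and at 42.1, 41.8, 42.8 and 43.7 CPM in the TGF-β1 cultures. The groups did not overlap, but the highest vehicle culture lay close to the lowest TGF-β1 culture. The means were 36.8 ± 2.46 CPM and 42.6 ± 0.839 CPM (SD, n = 4 each), a log2 fold change of 0.21 (SE 0.041, adjusted p = 2.98e-05), or 1.16-fold. Of the exon bases of Bmp6, 224 (5.74%) lie opposite exons of Txndc5 on the other strand. Txndc5, an endoplasmic reticulum disulfide isomerase, was at 276 and 309 CPM with a log2 fold change of 0.17 (adjusted p = 2.33e-07). The strand setting of the counting is not given in the sources used here, and the part of Txndc5 reads in the Bmp6 value was not tested. For Bmp4 such opposite-strand bases, of Gm15217, came to 89 (3.96%), and Gm15217 itself was at 0.491 and 0.731 CPM.

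Bmp7 (ENSMUSG00000008999, chr2:172868012-172940321, minus strand) encodes a ligand of kidney and eye development that opposes TGF-β1 in models of kidney fibrosis. It had 92, 57, 72 and 69 counts in the vehicle cultures and 22, 17, 16 and 14 counts in the TGF-β1 cultures, equal to 2.00, 1.25, 1.52 and 1.49 CPM and to 0.480, 0.370, 0.349 and 0.298 CPM. All 4 TGF-β1 cultures were far below the lowest vehicle culture. The means were 1.56 ± 0.312 CPM and 0.374 ± 0.0768 CPM (SD, n = 4 each), and Bmp7 fell by 2.06 on the log2 scale (SE 0.24, 95% interval -2.53 to -1.58, adjusted p = 6.36e-10). This was the largest change among the 8 BMP genes tested, at 0.239 of the vehicle level.

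Bmp2 (ENSMUSG00000027358, chr2:133552159-133562885, plus strand), the close relative of Bmp4 and a ligand that drives bone formation, was also scarce. It had 46, 42, 49 and 32 counts with vehicle and 24, 18, 24 and 16 counts with TGF-β1, which is 0.998, 0.921, 1.03 and 0.693 CPM against 0.524, 0.392, 0.524 and 0.340 CPM. Again no TGF-β1 culture reached the lowest vehicle culture. The means were 0.911 ± 0.152 CPM and 0.445 ± 0.0933 CPM (SD, n = 4 each), and the gene fell by 1.03 on the log2 scale (SE 0.26, 95% interval -1.56 to -0.51, adjusted p = 0.00109), to 0.488 of the vehicle level. At these counts the interval was wider than for the abundant members, and the fold changes of Bmp2 and Bmp7 are known less exactly than that of Bmp4.

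The summed level of the 4 ligand genes ran from 88.1 to 94.6 CPM with vehicle and from 105 to 115 CPM with TGF-β1. Per exon base, which allows genes to be set against each other, Bmp4 held 68.6 to 72.7% of the ligand counts with vehicle and 71.4 to 74.2% with TGF-β1, and Bmp6 held 25.1 to 29.8% and 25.2 to 28.2%. Both shares overlapped between the groups. Bmp7 went from 0.969 to 1.43% down to 0.187 to 0.279%, and Bmp2 from 0.57 to 0.864% down to 0.241 to 0.364%. The ratio of Bmp4 to Bmp6 per exon base was 2.3 to 2.9 in the vehicle cultures and 2.53 to 2.94 in the TGF-β1 cultures, so that these ranges overlapped as well.

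**Figure D2:**
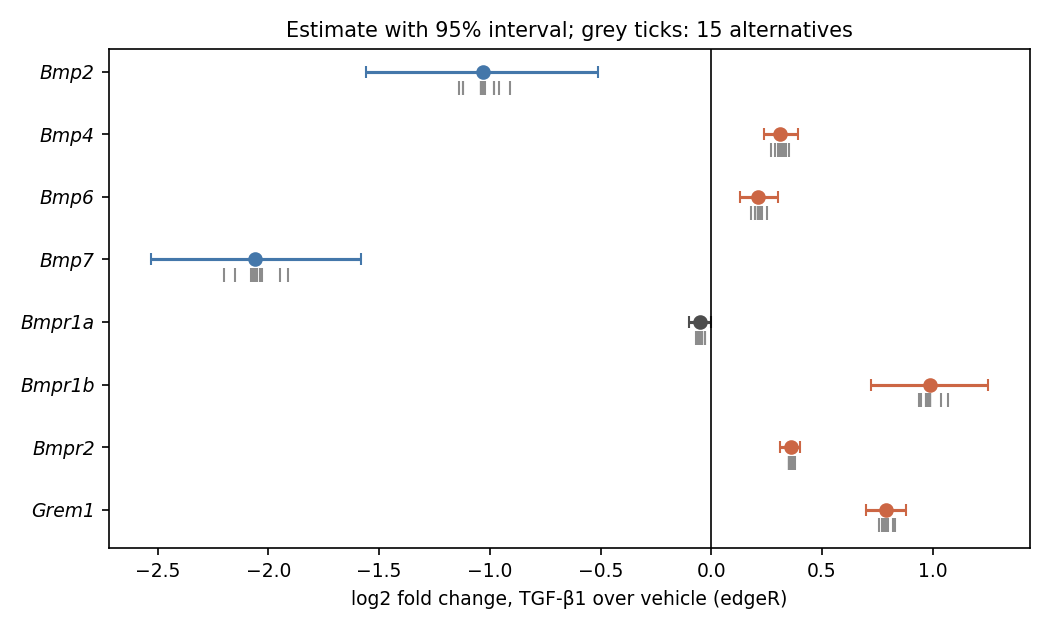
Log2 fold change of TGF-β1 over vehicle for the 8 BMP genes tested, with the point as edgeR's estimate, the bar as its 95% interval and grey ticks for the estimates under 15 alternative settings. Intervals lie above 0 for Bmp4, Bmp6, Bmpr1b, Bmpr2 and Grem1, below 0 for Bmp2 and Bmp7, and the estimate for Bmpr1a is -0.05.

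Of the 3 receptor genes, Bmpr2 and Bmpr1b were higher with TGF-β1 and Bmpr1a was not called. Bmpr2 (ENSMUSG00000067336, chr1:59763400-59879014, plus strand) encodes a type II receptor of BMP ligands in vessel walls. It was at 328, 327, 331 and 327 CPM in the vehicle cultures and at 429, 422, 425 and 409 CPM in the TGF-β1 cultures. The vehicle cultures lay within a few CPM of each other and the TGF-β1 cultures were all above them. The means were 328 ± 1.89 CPM and 421 ± 8.88 CPM (SD, n = 4 each), a log2 fold change of 0.36 (SE 0.022, adjusted p = 7.33e-18), or 1.28-fold.

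Bmpr1b (ENSMUSG00000052430, chr3:141837136-142169425, minus strand) encodes the type I receptor of cartilage and ovary and was the scarcest of the receptor genes here. Its counts were 100, 78, 84 and 86 with vehicle and 186, 168, 175 and 158 with TGF-β1, equal to 2.17, 1.71, 1.77 and 1.86 CPM and to 4.06, 3.66, 3.82 and 3.36 CPM. The groups were well apart. The means were 1.88 ± 0.204 CPM and 3.72 ± 0.292 CPM (SD, n = 4 each), a log2 fold change of 0.99 (SE 0.13, 95% interval 0.72 to 1.25, adjusted p = 2.43e-08), or 1.98-fold. The window before one RefSeq start of Bmpr1b (GRCm38.p6, chr3:141982265-141982514, minus strand) is shown because the gene had the steepest rise of the members. CAGAC, in capitals, begins at position -128 from the start, and the window had a GC content of 46.8%. It also had 2 matches of TATAAA, counted over both strands and left in small letters. Bmpr1b has further RefSeq windows, not shown. The one at chr3:141931589-141931838 held CAGAC on the other strand, as GTCTG at position -245, and the one at chr3:141931421-141931670 held none of the motifs sought.
Bmpr1b promoter: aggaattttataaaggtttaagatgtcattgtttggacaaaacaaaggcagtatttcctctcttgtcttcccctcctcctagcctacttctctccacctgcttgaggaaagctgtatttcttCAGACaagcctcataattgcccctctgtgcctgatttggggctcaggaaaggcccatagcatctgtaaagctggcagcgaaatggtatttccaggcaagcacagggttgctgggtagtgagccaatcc

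Bmpr1a (ENSMUSG00000021796, chr14:34410734-34503341, minus strand) encodes the broadly expressed type I receptor. It was at 173, 177, 178 and 176 CPM with vehicle and at 176, 173, 166 and 166 CPM with TGF-β1. The groups overlapped. The means were 176 ± 2.08 CPM and 170.4 ± 4.97 CPM (SD, n = 4 each), a log2 fold change of -0.05 (SE 0.025, adjusted p = 0.143, exact two-sided permutation p = 0.114). The 95% interval of the ratio ran from 0.935 to 1.00, and over the alternative settings the adjusted p ranged from 0.0459 to 0.473. Bmpr1a shares 290 exon bases (4.57%) with Gm17110 on the other strand, which was at 1.43 and 1.29 CPM.

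Within each culture, these changes altered the receptor make-up per exon base. The ratio of Bmpr1b to Bmpr1a was 0.0103 to 0.0133 with vehicle and 0.0215 to 0.0245 with TGF-β1, so that Bmpr1a remained by far the more abundant type I receptor of this pair. The ratio of Bmpr2 to Bmpr1a went from 0.652 to 0.669 up to 0.86 to 0.904. Its rise does not depend on the length used, but which of these genes is the more abundant does. Per kb of the longest coding transcript, Bmpr2 was below Bmpr1a with vehicle (25.3 to 25.7 against 29.1 to 29.9 CPM per kb) and above it with TGF-β1 (31.7 to 33.3 against 27.9 to 29.6 CPM per kb). The summed level of the 3 receptor genes was 504 to 511 CPM with vehicle and 578 to 609 CPM with TGF-β1.

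Of the antagonists, only Grem1 was abundant enough to be tested. Grem1 (ENSMUSG00000074934, chr2:113746164-113758646, minus strand) encodes gremlin 1, which binds BMP2, BMP4 and BMP7. It was at 181, 172, 169 and 167 CPM in the vehicle cultures and at 273, 316, 292 and 309 CPM in the TGF-β1 cultures. Every TGF-β1 culture was well above the highest vehicle culture. The means were 172 ± 6.19 CPM and 298 ± 19.2 CPM (SD, n = 4 each), a log2 fold change of 0.79 (SE 0.042, 95% interval 0.7 to 0.88, adjusted p = 2.07e-09), or 1.73-fold. The window before the RefSeq start of Grem1 (GRCm38.p6, chr2:113758649-113758898, minus strand) is shown as that of the most abundant member per exon base. CAGAC begins at position -219 and GGCGCC at -78 from the start, both in capitals, and the GC content of 72.0% was above that of 93.1% of the RefSeq windows.
Grem1 promoter: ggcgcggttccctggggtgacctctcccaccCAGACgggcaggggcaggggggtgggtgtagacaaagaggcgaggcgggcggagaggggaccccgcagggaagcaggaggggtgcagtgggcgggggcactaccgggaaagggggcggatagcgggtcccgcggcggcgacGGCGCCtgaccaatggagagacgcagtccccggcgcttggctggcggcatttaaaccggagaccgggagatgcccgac

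Nog (ENSMUSG00000048616, chr11:89300638-89302332, minus strand), encoding noggin, had 8, 2, 2 and 2 counts with vehicle and 8, 6, 6 and 8 counts with TGF-β1. The vehicle culture with 8 counts lay within the TGF-β1 values, so the groups overlapped. The means were 0.0757 ± 0.0652 CPM and 0.152 ± 0.0241 CPM (SD, n = 4 each), and the exact two-sided permutation test gave p = 0.114. Where Nog was tested, the log2 fold change was 1.01 (SE 0.71, adjusted p = 0.32) in DESeq2 and 0.97 (SE 0.7, adjusted p = 0.401) in edgeR with at least 1 count in any culture. A difference in Nog was not detectable at this depth.

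Gremlin 1 transcripts were set against those of Bmp4, one of the ligands it binds. The ratio of Grem1 to Bmp4 per exon base was 1.72, 1.85, 1.75 and 1.71 in the vehicle cultures and 2.07, 2.72, 2.41 and 2.62 in the TGF-β1 cultures. Thus Grem1 exceeded Bmp4 in all 8 cultures, and its excess was larger in every TGF-β1 culture. Bmp4 in turn was below Bmpr1a per exon base in every vehicle culture, at 0.803 to 0.926 of it, and above it in every TGF-β1 culture.

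On the scale of CPM per kb of exon, the 9 genes fell into an abundant and a scarce set with a wide gap between them. With vehicle the order was Grem1 at 41.5 ± 1.49, Bmpr1a at 27.7 ± 0.327, Bmp4 at 23.6 ± 1.22, Bmpr2 at 18.3 ± 0.105 and Bmp6 at 9.42 ± 0.631 CPM per kb. Bmp7 at 0.389 ± 0.0777, Bmpr1b at 0.315 ± 0.0343, Bmp2 at 0.256 ± 0.0428 and Nog at 0.0447 ± 0.0385 CPM per kb followed (SD, n = 4 each). The values of the neighbours Bmp7 and Bmpr1b overlapped, as did those of Bmpr1b and Bmp2.

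With TGF-β1 the order per kb became Grem1 at 71.7 ± 4.64, Bmp4 at 29.3 ± 1.72, Bmpr1a at 26.8 ± 0.783, Bmpr2 at 23.4 ± 0.494 and Bmp6 at 10.9 ± 0.215 CPM per kb. Bmpr1b then led the scarce set at 0.625 ± 0.049, and Bmp2 at 0.125 ± 0.0263, Bmp7 at 0.0931 ± 0.0191 and Nog at 0.0894 ± 0.0142 CPM per kb overlapped in range (SD, n = 4 each). Among all genes tested, Grem1 went from percentile 95.4 to 98.0 of level per kb, Bmpr1b from 14.2 to 24.2, and Bmp7 from 16.7 to 3.91. The place of Bmpr2 depends on the length used. With the longest coding transcript of 12899 bases in place of the 17983 bases of its joined exons, Bmpr2 was at 32.7 CPM per kb with TGF-β1 against 32.0 for Bmp4, with overlapping ranges, and 28.6 for Bmpr1a, with none.

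**Figure D3:**
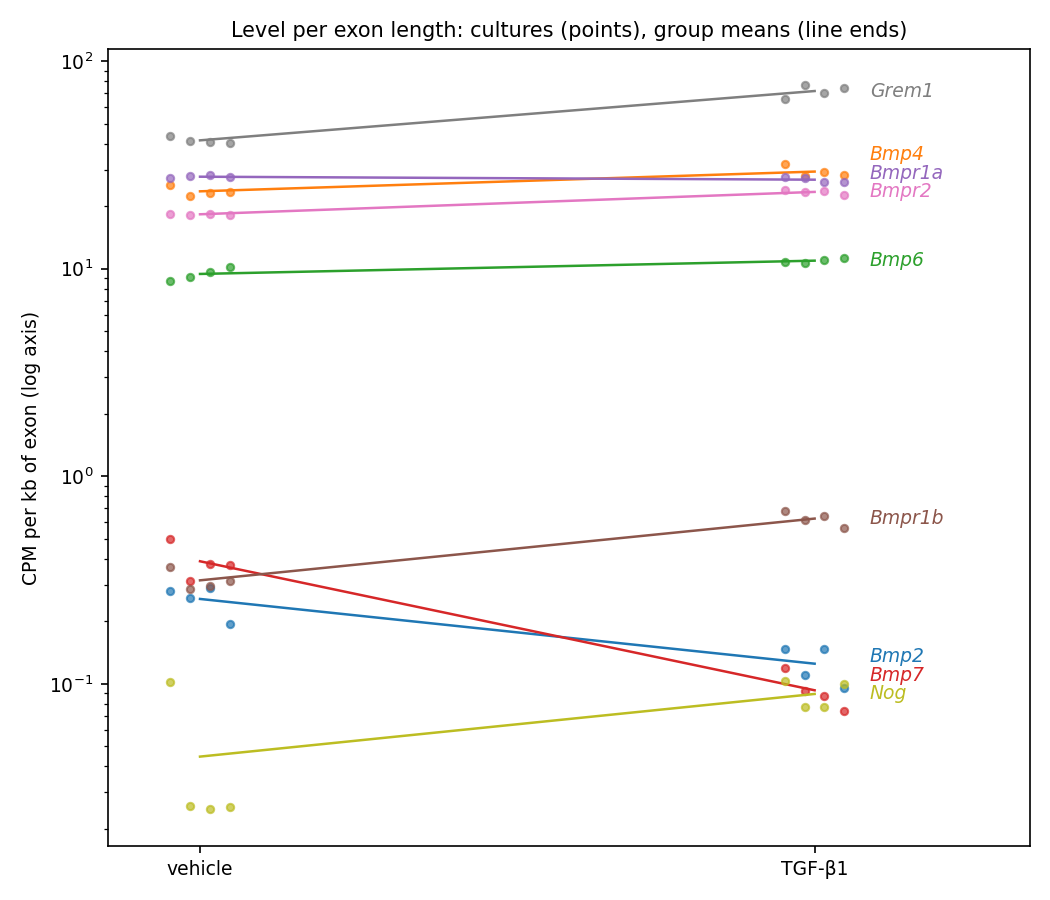
Level of each of the 9 BMP genes in vehicle and TGF-β1 cultures, in CPM per kb of joined exons on a log axis, with points for the 8 cultures and lines that join the group means. Grem1 is at the top in both groups (41.5 and 71.7 CPM per kb). The group means of 5 genes lie above 9 CPM per kb, and those of the other 4 lie below 1 CPM per kb.

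Beyond these members, 60 further genes of the BMP pathway were listed by role. Of these, 49 were tested, 21 were higher with TGF-β1, 15 were lower and 13 were not called (73.5% called against 41.3% of all genes), with a median log2 fold change of -0.02 against -0.01. As the list was chosen with earlier results of these data known, its share of calls, whole or by role, is not a test of the pathway. Of 10 other ligand genes only 4 passed the filter, and 2 were higher. Bmp8a rose from 1.94 ± 0.0883 to 3.71 ± 0.551 CPM (log2 fold change 0.94, SE 0.13, adjusted p = 1.14e-07). The second was Bmp3, named here after its values were seen, at 0.361 and 0.619 CPM (adjusted p = 0.0472). Its groups overlapped, at 0.26 to 0.484 CPM with vehicle and 0.426 to 0.917 CPM with TGF-β1. Gdf2 and Bmp10, which encode the high-affinity ligands of ALK1, were too low to be tested.

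Among 9 other receptors and co-receptors, 8 were tested, 3 were higher and 2 lower (62.5% called against 41.3% of all genes). Acvrl1, the type I receptor ALK1 known from endothelial cells, rose from 9.14 ± 0.949 to 22.5 ± 1.39 CPM (log2 fold change 1.30, SE 0.064, adjusted p = 3.83e-21). Acvr1, the type I receptor ALK2, rose from 54.0 ± 1.27 to 73.6 ± 2.6 CPM (log2 fold change 0.45, SE 0.033, adjusted p = 1.13e-15). Rgmb, a co-receptor of BMP2 and BMP4, fell by 0.41 on the log2 scale, from 111 ± 2.16 to 83.3 ± 2.52 CPM (SE 0.028, adjusted p = 1.92e-16). Acvr2a, Acvr2b and Eng, named after their values were seen, were not called. Cdh5, an endothelial marker, was at 375 and 367 CPM in these cultures. It made up most of the endothelial list, which summed to 389 to 404 CPM with vehicle and 373 to 399 CPM with TGF-β1. Pecam1 was at 1.11 CPM in both groups, and Cldn5, Erg, Emcn and Tie1 were too low to be tested. Of the 4 genes tested in that list Tek was lower, and the part of endothelial cells in the Acvrl1 value was not tested.

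Of 17 other antagonists and binding proteins, 13 were tested, 7 were higher and 3 lower (76.9% called against 41.3% of all genes). The largest changes at 1 CPM or more were rises. Bmper, which encodes the extracellular BMP modulator BMPER or crossveinless-2, went from 6.80 to 7.62 CPM in the vehicle cultures up to 30.9 to 37.9 CPM with TGF-β1 (log2 fold change 2.31, SE 0.062, adjusted p = 5.89e-29). Fst, encoding the activin binder follistatin, rose from 11.5 ± 0.9 to 32.0 ± 1.26 CPM (log2 fold change 1.47, SE 0.054, adjusted p = 7.06e-26). Its relative Fstl3 rose from 2.31 ± 0.261 to 6.40 ± 0.354 CPM (log2 fold change 1.47, SE 0.11, adjusted p = 1.76e-15). The median log2 fold change of the 13 was 0.18.

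The 7 genes that encode enzymes for cutting BMP precursors or chordin were all tested, 4 being higher and 1 lower. That is 71.4% called, against 41.3% of all genes. Bmp1, a procollagen and chordin protease that is not itself a BMP ligand, rose from 317 ± 3.36 to 610.3 ± 1.9 CPM (log2 fold change 0.95, SE 0.022, adjusted p = 2.45e-33). Its relative Tll1 rose from 13.9 ± 0.152 to 27.0 ± 2.37 CPM (log2 fold change 0.96, SE 0.056, adjusted p = 5.64e-19). Pcsk5, a proprotein convertase, rose from 1.40 ± 0.153 to 2.65 ± 0.665 CPM (log2 fold change 0.92, SE 0.16, adjusted p = 8.89e-06).

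Of 8 intracellular signal genes, 4 were higher and 2 lower (75.0% called against 41.3% of all genes). Smad7, an inhibitory SMAD and a feedback target of TGF-β, rose from 48.8 ± 2.27 to 74.2 ± 1.69 CPM (log2 fold change 0.60, SE 0.034, adjusted p = 1.96e-19). Smurf1, a ubiquitin ligase of SMAD1 and SMAD5, rose by 0.36 (SE 0.026, adjusted p = 1.05e-15). Smad9, a receptor-regulated SMAD of the BMP branch, fell by 0.56 on the log2 scale, from 27.5 ± 1.63 to 18.6 ± 0.852 CPM (SE 0.051, adjusted p = 7.9e-13). Of the other SMADs that carry BMP signals, named after their values were seen, Smad1 was higher (log2 fold change 0.31, adjusted p = 5.44e-11) and Smad5 was not called (adjusted p = 0.16).

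All 9 genes listed as BMP targets were tested, and 7 were lower with TGF-β1 and 1 higher, with a median log2 fold change of -0.41. Among all genes tested, 20.3% were called as lower and 20.9% as higher. Id4, which encodes an inhibitor of basic helix-loop-helix factors, fell by 1.53 on the log2 scale, from 5.79 ± 0.671 to 2.00 ± 0.345 CPM (SE 0.12, adjusted p = 2.62e-14). Its relative Id2 fell by 1.12, from 57.3 ± 1.4 to 26.3 ± 2.84 CPM (SE 0.051, adjusted p = 4.87e-16). Atoh8, a transcription factor downstream of ALK1, fell by 0.79, from 71.8 ± 3.08 to 41.4 ± 3.39 CPM (SE 0.044, adjusted p = 5.43e-14). Other falls, named after their values were seen, were smaller or less certain. Id3 fell by 0.41, from 169 to 127 CPM (adjusted p = 4.98e-07), Id1 by 0.19 and Msx1 by 0.17. The scarce Hey1, at 0.547 and 0.309 CPM, overlapped between the groups (adjusted p = 0.0485). The gene that was higher was Runx2, a bone transcription factor named after its values were seen, with a log2 fold change of 0.25 (adjusted p = 1.82e-10).

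**Figure D4:**
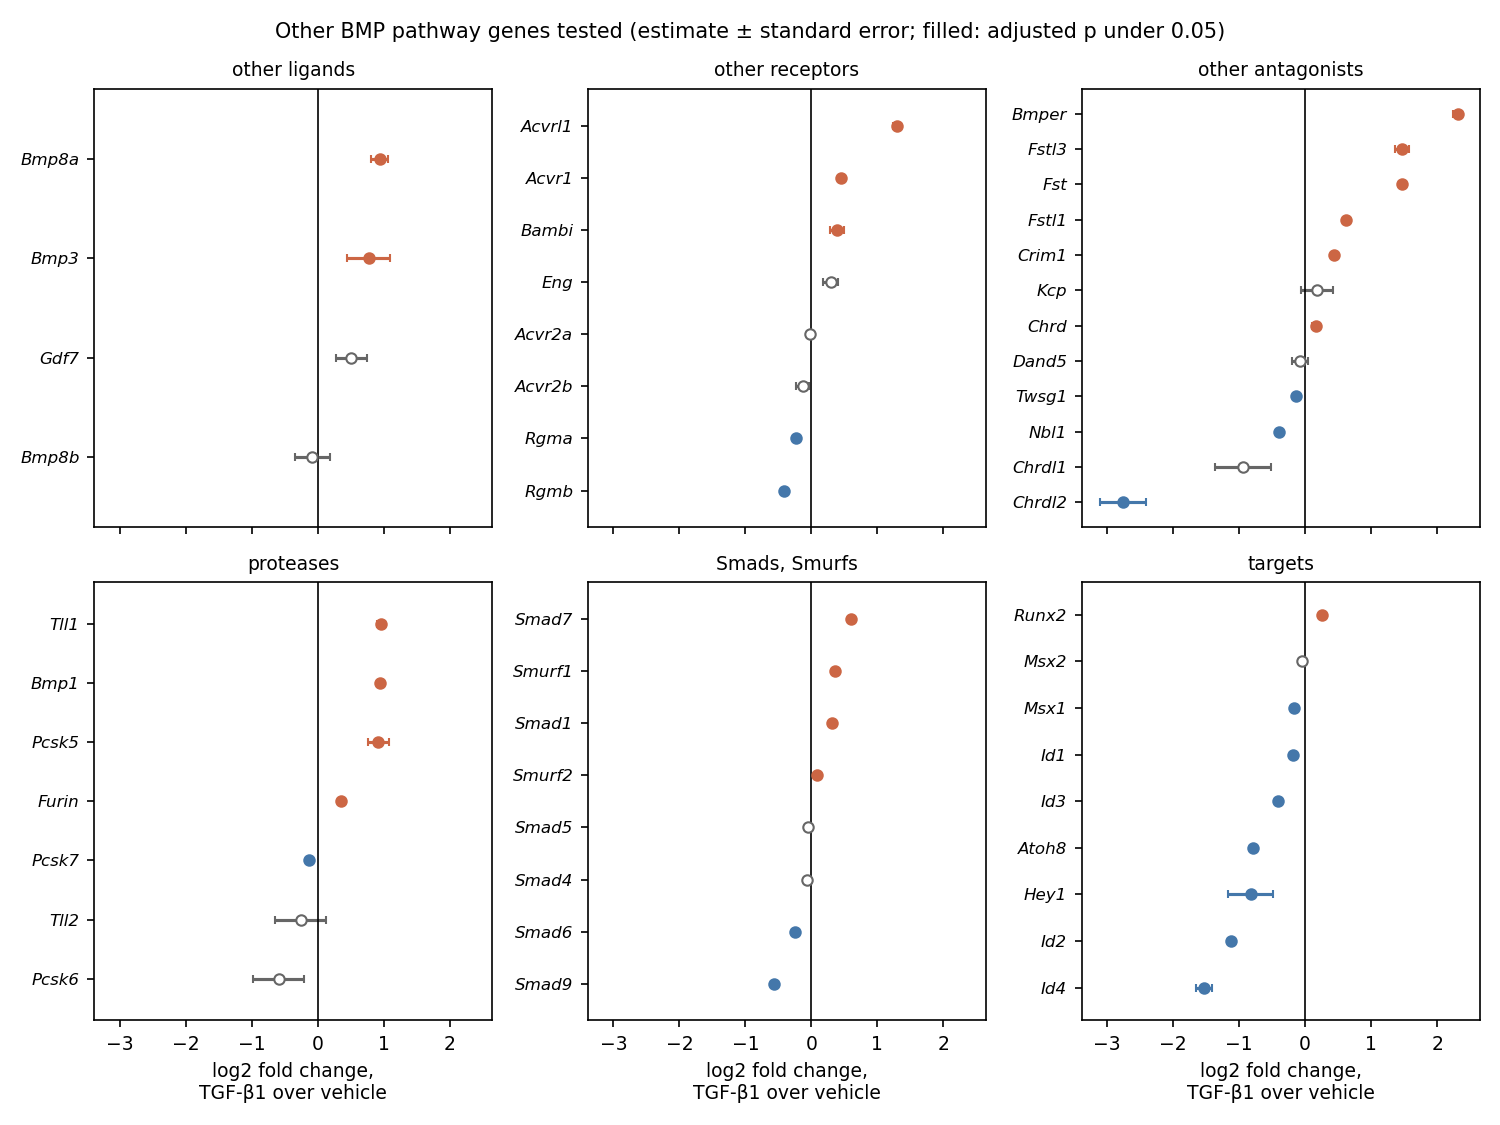
Log2 fold change of TGF-β1 over vehicle for the further BMP pathway genes that were tested, 49 but for 1 not shown, in a panel for each role, with bars of ± SE and filled points for genes at an adjusted p under 0.05. In the target panel 7 of 9 genes are called below 0, and the antagonist panel holds both the highest point, Bmper at 2.31, and the lowest, Chrdl2 at -2.76.

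For the 3 members with the largest changes, the genes most alike over the 8 cultures were sought by Pearson's r of log2 CPM among 16494 genes with a mean of at least 1 CPM. The genes most like Bmp7 were Zfp385a (r = 0.9961), Olfr656 (r = 0.9959) and Nptn (r = 0.9954). Those most like Bmp2 were 1700126G02Rik (r = 0.9953), 1810026B05Rik (r = 0.9937) and 4833422M21Rik (r = 0.9832), and those most like Bmpr1b were Kdm3a (r = 0.9968), Arid5b (r = 0.9937) and Inppl1 (r = 0.9924). All 9 of these genes were called in the direction of their member, and as the 8 points share the treatment, r here holds mostly the difference between the groups.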

How the data were processed

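Total RNA of 8 pericyte cultures was prepared with a stranded total RNA kit. The authors aligned reads to mm10 with STAR 2.7.5c, took out duplicates by SAMtools 1.15 and assigned the reads to genes by featureCounts 2.0.3. The annotation release and strand setting are not given in the sources used here. The deposited values are raw counts per Ensembl gene, from 45255235 to 47651397 per library, and 54495 of 54532 identifiers matched a GENCODE M21 symbol. Groups came from the sample titles.

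Counts were filtered by filterByExpr, scaled by TMM and tested with edgeR 4.0.16 (R 4.3.3, quasi-likelihood, robust, TGF-β1 against vehicle, Benjamini-Hochberg over 22544 genes, threshold 0.05). CPM used the library total and TMM factor, and CPM per kb the joined exons in GRCm38. Intervals came from the fitted SE. Single values were also compared by an exact two-sided permutation test over 35 splits, whose smallest p of 0.0286 each called member reached. The fit was tested on simulated counts with the same dispersion for every gene, a setting that these data need not share. It called 114 of 200 changed genes, with 5% false calls, and made 0 calls with no gene changed. DESeq2 1.42.0, other scalings and filters, counts divided by 2, and leaving out each culture were alternatives. A length from the longest coding transcript was added after seeing the data.

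The members, pathway lists, markers and the naming rule were chosen with earlier results of these data known. The rule named all 9 members, of each role up to 3 called genes with a mean of at least 1 CPM and the largest change, and 3 genes most like each of the 3 members with the largest change. Promoters are from RefSeq (GRCm38.p6), which held 6 of the 9 members. The values of 1 gene of the pathway list are not reported here, though its list's counts include it.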

Additional observations from a re-analysis of the deposited data

Results flagged for a closer look

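Among 52 groups of 4 values examined for a culture that stood apart (Dixon's criterion), 2 had one, where chance alone would give about 2.6. Nog in vehicle culture 1 was at 0.174 CPM, with the nearest vehicle culture at 0.0439 CPM, a gap of 0.986 of the group's range. These are 8 counts against 2 counts. Acvr1 in TGF-β1 culture 8 was at 77.5 CPM, with the nearest at 72.5 CPM, a gap of 0.903 of the range. All 4 TGF-β1 cultures were above the vehicle cultures for Acvr1.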

How the results depend on the processing

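Under 15 alternatives (DESeq2, 3 other scalings, 2 other filters, halved counts and the omission of each of the 8 cultures), the count of members higher with TGF-β1 was 5 each time and that of members lower was 2 to 3. Of the pathway list, 18 to 21 were higher and 14 to 16 lower. Bmp2, Bmp4, Bmp6, Bmp7, Bmpr1b, Bmpr2 and Grem1 kept their direction and their call in all 15. The log2 fold change ranged from -1.14 to -0.91 for Bmp2, from -2.2 to -1.91 for Bmp7 and from 0.76 to 0.83 for Grem1. Bmpr1a was called as lower with library totals as the only scaling (adjusted p = 0.0499) and without TGF-β1 culture 5 (adjusted p = 0.0459), and the cause was not tested. Among counts of 1 to 20, 68.5 to 70.2% were even. Halving the counts for that reason changed no member's call. The length used moved the levels per kb of Bmpr2, not its fold change, and turned its order against Bmpr1a with TGF-β1. Counting depth limits Nog, at 2 to 8 counts, and widens the intervals of Bmp2 and Bmp7. No paired analysis was possible because the groups share no replicate numbers (1 to 4 with vehicle and 5 to 8 with TGF-β1), so that isolates split between the arms, as the study's methods may mean, could not be matched. The effect of such a pairing on the p-values was not tested.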

Other observations

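Among scarce antagonist genes, the chordin-like gene Chrdl2, chosen here after its values were seen, fell by 2.76 on the log2 scale (SE 0.35, adjusted p = 1.08e-08), from 0.967 ± 0.252 CPM with vehicle to 0.141 ± 0.0916 CPM with TGF-β1 (SD, n = 4 each). No TGF-β1 culture exceeded 0.262 CPM and no vehicle culture was under 0.768 CPM. Among abundant genes of that list, also named after their values were seen, Fstl1 rose from 687 ± 27.3 to 1059 ± 15.7 CPM and Crim1 from 111 ± 6.01 to 151 ± 6.67 CPM, while Nbl1 fell from 288 ± 6.57 to 219.8 ± 10.4 CPM.

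The remaining marker lists gave these values, whose part in the results above was not tested. The smooth muscle list summed to 694 to 765 CPM with vehicle and 704 to 742 CPM with TGF-β1, mostly Acta2 at 731 and 715 CPM. Myh11 and Tagln were at or below 2.04 CPM in every culture. Of the exon bases of Tagln, 67.9% lie opposite exons of other genes, and the part of this overlap in its value was not tested. The astrocyte list went from 41.1 to 47.2 CPM down to 25.4 to 27.7 CPM, mostly Slc1a2, with Gfap at 0.879 and 0.947 CPM and Aqp4 at or near 0. The microglia list summed to 104 to 108 and 102 to 105 CPM, mostly Tmem119, with Ptprc below 1 CPM in every culture. The oligodendrocyte list summed to 2.26 to 3.51 and 2.85 to 3.19 CPM.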
